A study of Mus musculus with 12 samples.

Results

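The comparison asked which genes differed in their response to the Wt1 het genotype between old and young mice. For each gene the log2 change from control to het was taken in old and in young myeloid progenitors, and the young change was subtracted from the old change. A positive difference means that the het level, relative to its own control, was higher in old than in young. All genes that passed a low-count filter entered, which were 10604 of the 33924 genes in the table; 15075 genes had 0 counts in every sample. No measured difference between groups was used to choose them.

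The study profiled myeloid progenitors from femurs and tibias of 12 mouse samples by 3' mRNA sequencing, in which reads come from 1 end of the transcript. The cells were sorted as live singlets that carried c-Kit but neither lineage markers nor Sca1, a gate known as LK. There were 3 samples in each of 4 groups. The old and the young het groups were Mx+ Wt1fl/+, with 1 floxed and 1 intact allele, and the old and the young control groups were Mx+ Wt1+/+. All 4 groups therefore carried the Mx Cre transgene, whose promoter is inducible by interferon and is active in many tissues, so that Wt1 can also be lost outside the sorted cells. The labels give no inducing agent, list the treatment as none, and give no age in weeks. They name every old sample "chronic" and every young sample "acute", so age and that condition cannot be told apart. Nothing in them states that replicates are separate animals, and the p-values measure the spread between these samples.

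WT1 is a zinc finger transcription factor that binds GC-rich DNA and recruits TET2, and acute myeloid leukaemias can carry mutations of its gene. Lineage-negative c-Kit+ Sca1- marrow contains the progenitors of granulocytes, monocytes, basophils, red cells and megakaryocytes. The interaction of genotype with age asks whether the effect of the het genotype in these cells is the same in both settings.

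The libraries held 645460 to 9645502 counts, so that a level of 3 counts ranged from 0.311 to 4.65 CPM (counts scaled to a common library size). The 5 shallowest were the 3 young controls and old hets 1 and 3. Young control 3 stood apart, with 14.2% of the tested genes at 0 against 0.189 to 7.47% elsewhere. Its title carries library number 18, next to 19 to 21 of the young hets, while young controls 1 and 2 carry 29 and 30; the labels do not say that these numbers mark a batch. Old het 1, young control 3 and the 3 young hets had 0 counts of Ddx3y, a Y-linked gene, whereas the other 7 libraries had 83 to 1457. Xist, an X-linked RNA of female cells, had 1058 to 12513 counts in the former and 0 to 5 in the other 7. All young hets were thus of the female pattern, but among young controls only young control 3 was. The young het effect and sex are therefore partly confounded and cannot be fully told apart. Wt1 was counted 1 to 4 times in each old library, 4 to 8 times in each young control and 7, 4 and 23 times in young hets 1 to 3. Relative to total counts its mean was 0.693 CPM in old controls and 1.94 CPM in old hets. It was 5.2 CPM in young controls and 2.26 CPM in young hets. Wt1 was not tested, and a tag outside the deleted part checks nothing, so loss of the floxed allele is not shown here. The gate's markers were present in every group. Kit, the receptor the cells were sorted on, was at 190 ± 16.3 CPM in old controls and 194 ± 80.1 CPM in old hets (SD, n = 3 here and below), and at 190 ± 91.2 and 129 ± 34.5 CPM in young controls and hets. Mpo, the myeloperoxidase of early granulocytes, was at 4746, 5463, 2711 and 4748 CPM in the same order. The summed level of 25 T and NK cell markers was 38.7 to 306 CPM per library, with 7 to 19 of them at 0, and that of 20 stromal and endothelial markers 41.8 to 428 CPM, with 10 to 17 at 0. In these bulk samples fewer cells of a type and less RNA per cell cannot be told apart.

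Among the 10604 genes, 9 passed an adjusted p of 0.05 for the difference of het effects (edgeR quasi-likelihood test, Benjamini-Hochberg), or 0.0849%. In 8 of them (0.0754% of genes) the difference was positive, and in 1 (0.00943%) it was negative. The 8 were Slbp, Cnot3 and Prkacb, which encode proteins, and the noncoding U3, U1, Snord49b, mt-Tp and mt-Tq. The 1 was Cebpd. At an unadjusted p under 0.05 the difference was positive in 696 genes (6.56%) and negative in 660 (6.22%), 1356 (12.8%) in all. Tested alone, the young effect passed in 45 genes (0.424%), 19 higher (0.179%) and 26 lower (0.245%) in het, and these included 8 of the 9. The old effect passed in 0 genes by edgeR, by DESeq2 and by limma-voom; at an unadjusted p under 0.05 edgeR counted 380 genes (3.58%) in old and 1488 (14%) in young. Het and control libraries did not overlap in 1181 genes (11.1%) in old and in 1786 (16.8%) in young, and of the 9 genes this held for all in young and for none in old.

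The promoters of the 3 protein-coding genes with a positive difference are shown because these genes moved together across libraries and WT1 binds DNA. Each run is the 250 bases before the RefSeq start on build GRCm38.p6, 5′ to 3′ on the gene's strand, and capitals mark matches to the motifs searched. They lie at chr5:33652575-33652824 (- strand) for Slbp, chr7:3645019-3645268 (+ strand) for Cnot3 and chr3:146812947-146813196 (- strand) for Prkacb, for which the first of 3 listed starts was taken.
Slbp: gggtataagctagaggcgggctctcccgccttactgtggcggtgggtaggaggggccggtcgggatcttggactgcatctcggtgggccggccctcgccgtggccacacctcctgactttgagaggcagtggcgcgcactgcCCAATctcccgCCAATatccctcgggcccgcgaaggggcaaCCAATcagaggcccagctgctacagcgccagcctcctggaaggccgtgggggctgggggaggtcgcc
Cnot3: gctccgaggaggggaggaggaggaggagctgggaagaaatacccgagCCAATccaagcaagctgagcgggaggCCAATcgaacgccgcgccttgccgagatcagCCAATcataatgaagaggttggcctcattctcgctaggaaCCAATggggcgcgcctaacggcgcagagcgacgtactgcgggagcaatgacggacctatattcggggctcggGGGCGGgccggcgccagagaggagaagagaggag
Prkacb: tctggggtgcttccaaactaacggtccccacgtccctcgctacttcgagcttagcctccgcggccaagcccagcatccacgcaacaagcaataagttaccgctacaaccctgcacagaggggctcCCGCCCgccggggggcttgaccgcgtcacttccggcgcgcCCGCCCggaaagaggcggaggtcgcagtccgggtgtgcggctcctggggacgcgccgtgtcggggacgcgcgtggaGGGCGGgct
The motifs were GCGTGGGNG (WT1 and EGR factors), GGGCGG (GC box), CCAAT (bound by NF-Y), TGACGTCA (cAMP response element), TTGCNNAA (C/EBP) and TTTCCCGC (E2F), each on both strands. Slbp had 3 CCAAT boxes, Cnot3 had 4 and a GC box, and Prkacb had 3 GC boxes, 2 of them on the opposite strand; no match overlapped another. None of the 3 windows held GCGTGGGNG.

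The shares of promoters with each motif were counted over genes, without a test. The promoter table matched 7339 of the 10604 tested genes. GCGTGGGNG occurred in 1.61% of all 27025 promoters in the table, in 2.89% of those of tested genes, in 13 of 440 (2.95%) whose difference was positive at an unadjusted p under 0.05, and in 15 of 465 (3.23%) whose difference was negative. For CCAAT the shares were 34.5, 36.8, 37 and 35.5%, and for the GC box 32.9, 60.5, 58 and 61.5%. The C/EBP motif was in 9.55, 7.17, 9.55 and 7.1%, the cAMP response element in 1.62, 3, 2.27 and 2.37%, and the E2F motif in 0.929, 1.95, 1.14 and 2.37%. A match is a run of letters and not a bound site.

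Slbp encodes the stem-loop binding protein, which binds the 3′ end of replication-dependent histone mRNAs, and it had the smallest p of all genes. Its level was 20, 32.3 and 30.1 CPM in old controls 1 to 3 and 115, 27.7 and 113 CPM in old hets 1 to 3. It was 410, 673 and 420 CPM in young controls and 78.3, 40.8 and 62.6 CPM in young hets. Every young control lay above every other library, old hets 1 and 3 lay above all old controls, and old het 2 lay among them. The log2 change was 1.63 ± 0.44 (SE) in old and -3.05 ± 0.46 in young, a difference of 4.68 ± 0.63 (edgeR adjusted p = 0.00377). Of the other 25 tested genes of histone mRNA processing none passed, and 2 of them had positive and 2 negative differences at an unadjusted p under 0.05. Among these, Srrt, which links the cap-binding complex to RNA processing, had effects of 0.71 and -0.74, and Lsm10, a subunit of the U7 particle that cuts histone pre-mRNA, had -1.02 and 1.39. Of 43 tested histone genes 3 had positive and 2 negative differences at that p, and the linker histone Hist1h1a had 0.60 in old and -2.77 in young.

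Cnot3 is a subunit of the CCR4-NOT complex, which removes poly(A) tails from mRNA. Its level was 78.2, 77.3 and 65.9 CPM in old controls, 150, 61.3 and 142 CPM in old hets, 354, 597 and 310 CPM in young controls and 107, 71.9 and 56.1 CPM in young hets. The young groups did not overlap, and in old only hets 1 and 3 lay above the controls. Its effect was 0.67 ± 0.37 in old and -2.42 ± 0.39 in young, a difference of 3.09 ± 0.54 (edgeR adjusted p = 0.0228). Other members of the complex had the opposite order: Cnot8, a deadenylase subunit, had -0.81 in old and 1.26 in young, its paralog Cnot7 had -0.50 and 1.69, and the scaffold Cnot1 had 0.07 and 1.35. None of these 3 passed (unadjusted p = 0.0041, 0.00755 and 0.0066 in the same edgeR test). Of 29 tested genes of deadenylation 3 had positive and 3 negative differences at an unadjusted p under 0.05, and the list's median difference was 0.02 (-0.08 to 0.25 with 1 library left out) against -0.18 over all tested genes.

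Prkacb encodes a catalytic subunit of protein kinase A, the kinase switched on by cAMP. Its level was 348, 302 and 302 CPM in old controls, 750, 241 and 575 CPM in old hets, 1030 to 2104 CPM in the 3 young controls and 265 to 395 CPM in the 3 young hets. Again old het 2 lay below the old controls while old hets 1 and 3 lay above them. The effect was 0.71 ± 0.38 in old and -2.13 ± 0.39 in young (difference 2.84 ± 0.54, edgeR adjusted p = 0.0398). Gnas, which encodes the G protein that stimulates cAMP production, had 0.85 ± 0.53 and -2.48 ± 0.54 and did not pass (adjusted p = 0.0806). These were the 2 of 30 tested genes of protein kinase A and cAMP signalling at an unadjusted p under 0.05, both positive.

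The small RNAs among the 9 belong to pre-mRNA splicing (U1, which recognises the 5′ splice site) and ribosome production (U3, needed to cut pre-rRNA, and Snord49b, which guides methylation of rRNA). U1 was at 160, 183 and 173 CPM in old controls, 623, 163 and 475 CPM in old hets, 1540, 2548 and 3829 CPM in young controls and 544, 796 and 862 CPM in young hets. U3 was at 35.0 to 79.2 CPM in old controls, 65.7 to 99.8 CPM in old hets, 446 to 583 CPM in young controls and 36.5 to 90.4 CPM in young hets. Snord49b was at 28.0 to 50.0, 36.1 to 129, 250 to 731 and 68.5 to 129 CPM in the same order. For all 3 RNAs the young controls lay above every young het, and the old groups overlapped. The differences were 3.13 ± 0.59 for U1 (edgeR adjusted p = 0.0398), 3.95 ± 0.56 for U3 (0.0038) and 3.68 ± 0.65 for Snord49b (0.0228). The symbols U1 and U3 can each stand for many near-identical loci, whose reads cannot be told apart. In their mature form these RNAs and mitochondrial tRNAs lack a poly(A) tail, the feature from which 3' mRNA kits start.

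The pattern extended over small RNAs as a class. Of 62 tested small RNA genes 25 (40.3%) had a positive and 1 a negative difference at an unadjusted p under 0.05, against 6.56% and 6.22% of all tested genes. The median effect over the 62 was 0.62 in old and -1.45 in young, and 42 of them were higher in old het and lower in young het. Snora68, a guide of rRNA pseudouridylation, had 2.59 ± 0.93 and -2.68 ± 0.88 without overlap of the groups at either age, but did not pass (edgeR adjusted p = 0.0871). Small RNAs made up 0.382 to 0.867% of counts in the young controls and 0.118 to 0.303% in the other 9 libraries. The proteins that act with snoRNAs did not show a shift of that size: the 41 tested genes of snoRNP and nucleolar proteins had a median effect of 0.05 in old and -0.10 in young, with 7 positive and 3 negative differences at that p. Wdr3, a factor of small-subunit processing, had 0.79 and -1.12, and its groups did not overlap at either age.

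Mitochondrial RNAs, all read from the mitochondrial genome, gave the highest share of positive differences among the RNA classes apart from 6 sex-linked genes. Of 21 tested, 19 (90.5%) had a positive and 0 a negative difference at an unadjusted p under 0.05 in edgeR. The tRNAs mt-Tp (for proline) and mt-Tq (for glutamine) passed. mt-Tp was at 51.6, 62.0 and 53.5 CPM in old controls, 112, 46.1 and 67.6 CPM in old hets, 308, 440 and 229 CPM in young controls and 48.0, 65.8 and 54.0 CPM in young hets. mt-Tq was at 29.4, 52.6 and 26.1 CPM in old controls, 125, 36.1 and 43.3 CPM in old hets, 285, 365 and 184 CPM in young controls and 18.1, 52.7 and 31.7 CPM in young hets. The young controls stood alone in both, and the old groups overlapped. The difference was 2.96 ± 0.51 for mt-Tp and 3.91 ± 0.69 for mt-Tq (edgeR adjusted p = 0.0228 for each).

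Over the 11 tested mitochondrial tRNAs the median effect was 0.80 in old and -2.75 in young, and over the 10 tested mitochondrial mRNAs and rRNAs 0.57 and -1.67. mt-Co1, a core subunit of cytochrome oxidase, had 0.51 and -1.64, and mt-Nd1, a subunit of complex I, had 0.60 and -1.74; neither passed. The old part of this pattern came from old hets 1 and 3: relative to the old control mean the median mRNA and rRNA level was 1.31 (log2) in old het 1 and 0.66 in old het 3 but -0.67 in old het 2. Nuclear genes of oxidative phosphorylation, whose products join these subunits, had medians of -0.30 in old and 0.14 in young over 74 tested genes, with 1 positive and 3 negative differences at an unadjusted p under 0.05. The median difference of the tRNAs was 3.77 and ran from 2.92 to 4.11 as each library was left out, and that of the mRNAs and rRNAs was 2.11 and ran from 1.72 to 2.48. With the mitochondrial rRNA share in the model they were 2.31 and 0.47, and with log2 total count 2.79 and 1.36. That share is computed from mt-Rnr1 and mt-Rnr2, members of the mRNA and rRNA list. The first fit thus partly adjusts that list for itself, and its fall was in part built in.

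Cebpd was the 1 gene with a negative difference that passed. It encodes C/EBPδ, a transcription factor of granulocyte and acute-phase genes. It was at 16.9, 36.3 and 20.8 CPM in old controls, 7.28, 26.9 and 7.88 CPM in old hets, and 19.5, 31.1 and 24.5 CPM in young hets, and had 0 counts in all 3 young controls. Its level in young het was thus at least 26.8-fold higher than a floor of 3 counts over the young controls (0.933 CPM). The old effect was -0.79 ± 0.67 and the old groups overlapped. The fitted difference was -10.22 (edgeR adjusted p = 0.0228), a value that depends on the zeros; with the young effect set at the floor it was -5.53. Of 24 tested C/EBP and granulocyte transcription factors 4 had a negative and 1 a positive difference at an unadjusted p under 0.05. The 4 were Cebpd, Gfi1, Cebpa and Fos, an immediate early factor with -2.06 in old and 0.12 in young. Lists share members, and Gfi1 and Fos are counted in other lists too. The median difference of the 24 was -0.16, against -0.18 over all tested genes, and 8 of them were above 0. Gfi1, a repressor needed for neutrophil development, had -0.72 and 2.85 (adjusted p = 0.0813) and Cebpa, the central factor of granulocyte commitment, -0.34 and 1.68.

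**Figure D1:**
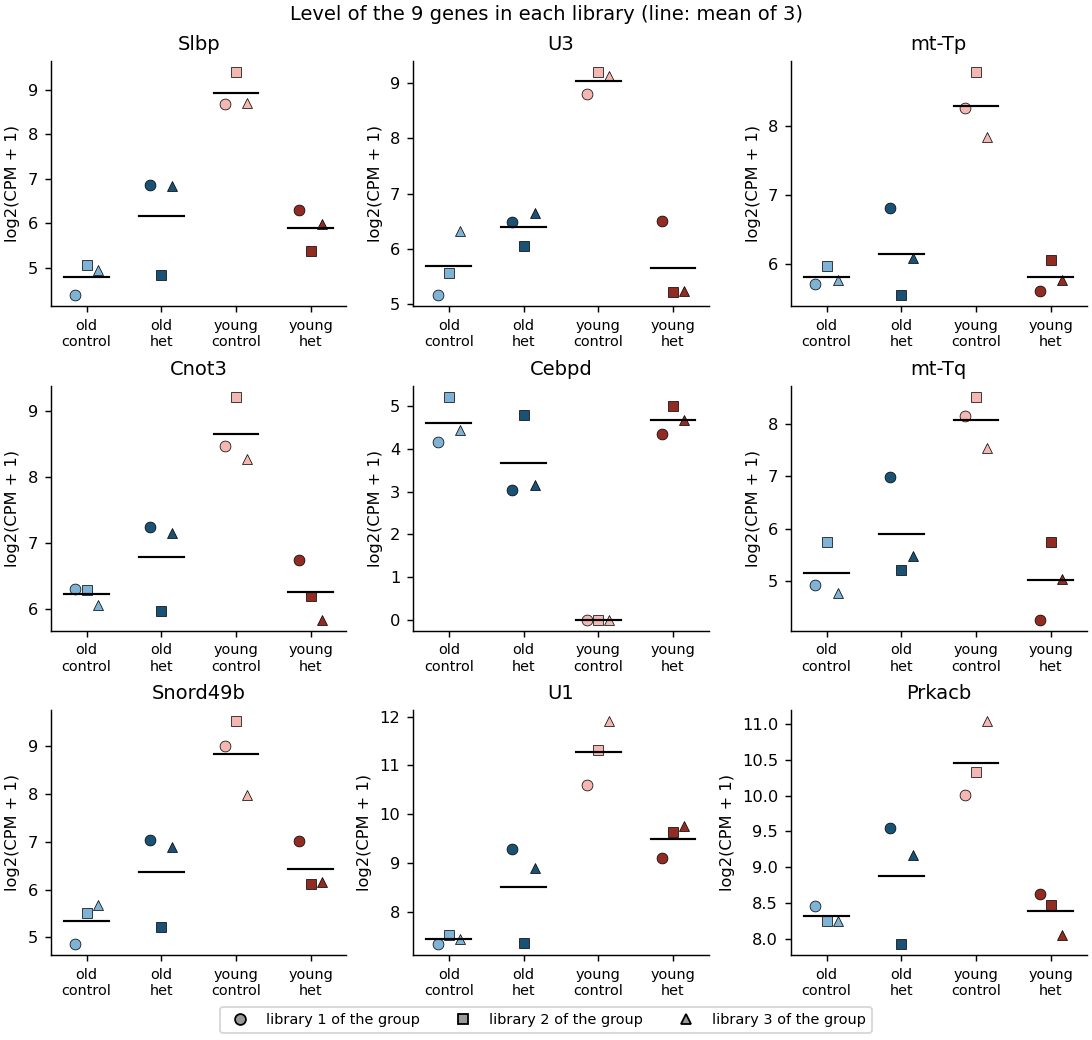
Levels of the 9 genes past the threshold as log2(CPM + 1) (y axis) in each of the 12 libraries, by group (x axis); symbols mark libraries 1 to 3 and lines the group mean. The young controls lie above all other libraries in 8 genes and at 0 in Cebpd, and old het 2 lies near the old controls.

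The next 21 named genes by p had adjusted p from 0.0616 to 0.0806 and did not pass. Tnpo1, a nuclear import receptor, was at 155, 153 and 154 CPM in old controls, 100, 99.4 and 99.8 CPM in old hets, 69.1, 40.8 and 50.4 CPM in young controls and 143, 140 and 170 CPM in young hets. Foxk1, a forkhead factor that represses autophagy genes, was at 104 to 171, 38.9 to 69.5, 39.7 to 71.4 and 93.4 to 191 CPM in the same order. For both genes the het and control libraries did not overlap at either age. Their effects were -0.63 ± 0.30 and 1.49 ± 0.32 for Tnpo1 and -1.21 ± 0.38 and 1.35 ± 0.38 for Foxk1 (edgeR adjusted p = 0.0616 for each difference). Tspan5, a tetraspanin that regulates ADAM10, had the reverse, 1.07 ± 0.39 and -1.59 ± 0.40, also without overlap at either age. Idh1, the cytosolic isocitrate dehydrogenase mutated in some leukaemias, was at 213 ± 121 and 158 ± 79.4 CPM in old controls and hets and at 22 ± 6.54 and 128 ± 37.9 CPM in young controls and hets, with effects of -0.42 ± 0.45 and 2.56 ± 0.50.

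Opposite signs were common among genes past a cut at both ages, but the cuts do not show that a gene had an old effect. The old effect passed the adjusted threshold in 0 genes. Its 380 genes (3.58%) at an unadjusted p under 0.05 in edgeR are a smaller share than that cut of 0.05. Of all tested genes 6090 (57.4%) had effects of opposite sign, 2652 higher in old het and lower in young het and 3438 the reverse, and 4510 had the same sign. Of 618 genes whose effect was at least 1 (log2) in size at both ages, 416 (67.3%) were opposite. Of 94 genes at an unadjusted p under 0.05 at both ages, 88 (93.6%) were opposite and 6 the same. The 88 were 0.83% of tested genes: 75 (0.707%) were higher in old het and lower in young het, and 13 (0.123%) the reverse. Across genes the old and young effects had a Pearson r of -0.143 and a Spearman rho of -0.180 (n = 10604 genes, which are not independent). The old and the young effect share no library, but they share the scaling and the estimate of the spread.

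**Figure D2:**
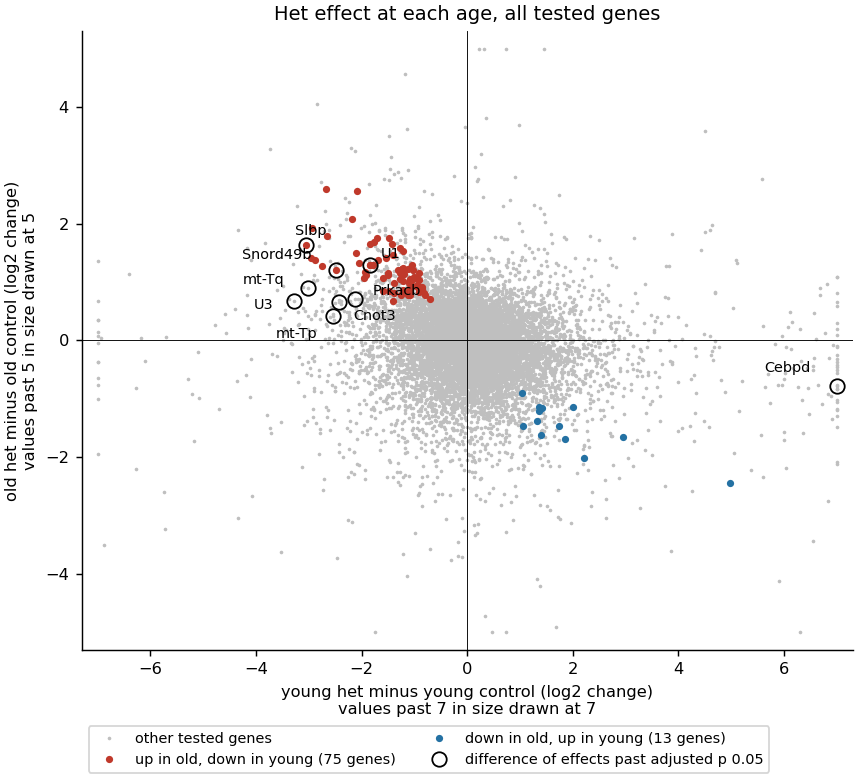
Het effect in young (x axis) against het effect in old (y axis), as log2 change, for each of 10604 tested genes; red and blue mark the 75 and 13 genes of opposite sign with an unadjusted p under 0.05 at both ages, and circles the 9 genes past the threshold of the difference. Most circles lie farther from 0 on the young axis than on the old axis.

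The 75 genes included 49 ordinary gene names, 17 predicted models, 6 small RNAs and 3 mitochondrial RNAs; Slbp, U1 and Snord49b were the members that passed the test of the difference. Some members with known roles are given here, chosen after their values were seen. Upf3a, of nonsense-mediated decay, had 1.05 in old and -1.26 in young, and the RNA helicase Ddx23, of the spliceosome, 1.14 and -1.20. Bad, which promotes apoptosis, had 0.79 and -1.25, Vegfa, the endothelial growth factor, 1.09 and -1.01, and Dut, which keeps uracil out of DNA, 1.06 and -1.09. F13a1, a transglutaminase of monocytes and platelets, was at 143, 504 and 368 CPM in old controls, 1097, 330 and 957 CPM in old hets, 1010, 1003 and 1250 CPM in young controls and 589, 371 and 434 CPM in young hets. Its old groups overlapped through old het 2, and its effects were 1.23 ± 0.43 and -1.23 ± 0.43. Ebf1, the factor that commits cells to the B lineage, was low in old controls (5.76 ± 0.7 CPM) and had 1.37 ± 0.57 and -1.69 ± 0.55.

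The 13 genes lower in old het and higher in young het held no small or mitochondrial RNA. That they were fewer turned with covariates: of 26 opposite genes with the mitochondrial rRNA share in the model 2 were higher in old het, and of 22 with log2 total count 7 were. They include Pbx3, a partner of HOX proteins in leukaemia, with -1.14 ± 0.51 and 2.01 ± 0.59, and Cytip, which regulates adhesion of blood cells, with -1.68 and 1.85. Sh2d3c, a signalling adaptor, had 1, 0 and 0 counts in young controls and 52, 62 and 32 in young hets, so its young effect rests on 1 control count. Its old controls were at 33.9, 5.89 and 5.31 CPM and its old hets at 0, 4.01 and 3.94 CPM. Cd9, a tetraspanin of megakaryocytes and platelets, was at 23.5, 24 and 17.7 CPM in old controls, 5.66, 6.41 and 3.94 CPM in old hets, 7.59, 3.4 and 0 CPM in young controls and 25.2, 10.5 and 16.4 CPM in young hets. Its groups did not overlap at either age, with effects of -2.01 ± 0.84 and 2.22 ± 0.89. The secretory pathway genes Arf4 (-1.38 and 1.33), Tm9sf2 (-1.63 and 1.41) and Sdf2 (-1.47 and 1.05) were also among the 13. The old groups overlapped for Arf4, and the young groups for Tm9sf2 and Sdf2. Sdf2 was at 26.6, 23.8 and 22.9 CPM in young controls and 19.5, 93.7 and 38.7 CPM in young hets. None of the 13 passed the test of the difference.

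These sets were chosen by their effects, so their levels are given as a description. Old hets 1 and 3 lay above every old control in 75 of the 75 genes, and old het 2 in 21. Young controls 1 to 3 lay above every old control in 75, 75 and 74 of them, and young hets 1 to 3 in 64, 55 and 63. The median level relative to the old control mean (log2) was 1.56, 0.13 and 1.40 in old hets 1 to 3, 2.35, 2.48 and 1.72 in young controls and 1.13, 0.71 and 0.86 in young hets. In the 13 genes the old hets were more alike, at -1.21, -1.20 and -1.40, with young controls at -1.82, -1.93 and -3.26 and young hets at -0.72, -0.16 and -0.83.

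**Figure D3:**
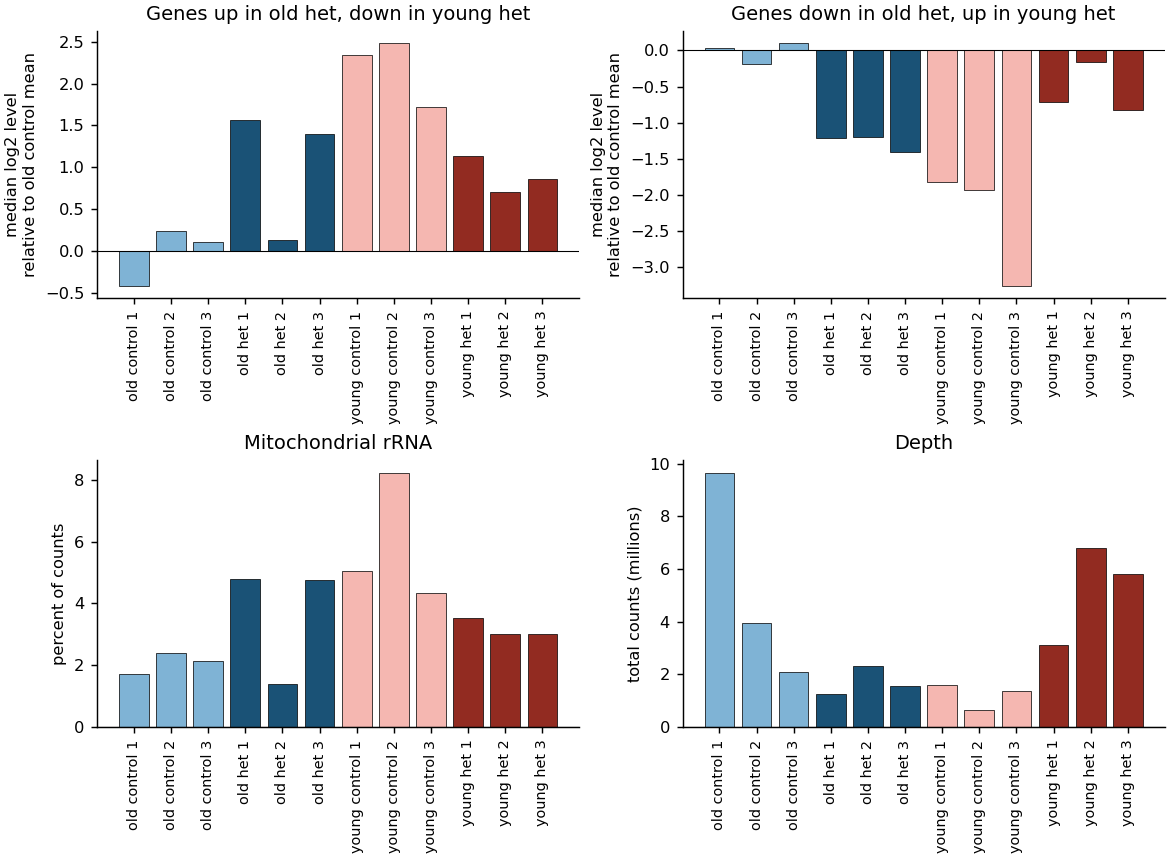
Median log2 level relative to the old control mean of the 75 genes (upper left) and the 13 genes (upper right), mitochondrial rRNA as percent of counts (lower left) and total counts (lower right), 1 bar for each of the 12 libraries. Old hets 1 and 3 and the young controls are high in the 75 genes and in mitochondrial rRNA, and old het 2 is near the old controls in both.

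Mitochondrial rRNA moved with these levels. It made up 1.70, 2.38 and 2.13% of counts in old controls, 4.78, 1.40 and 4.75% in old hets, 5.03, 8.22 and 4.35% in young controls and 3.51% in young het 1 and 3.0% in the other 2. mt-Rnr1 and mt-Rnr2, the rRNAs themselves, are among the 75 genes. With this share in the edgeR model 0 genes passed for the difference (393 at an unadjusted p under 0.05), and the effects of Slbp became 0.81 in old and -2.00 in young. With log2 total count in the model 0 passed as well (373 at an unadjusted p under 0.05). Both measures differ between the groups, so that these fits also take out part of the group differences. When all libraries were thinned to the depth of the shallowest, 31 to 58 genes passed in 5 draws, and all 9 genes were among them in each draw. The part of the rRNA share in the result was not tested beyond these fits.

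Single libraries set how many genes passed. Without old het 2 the count rose from 9 to 294 (189 positive), and without young control 3 to 143 (110 positive). Without old control 1 and young control 3 together it was 59. Without any 1 of the other libraries it was 2 to 18: 2 without old control 3, young control 2 or young het 3, 3 without old het 3 or young het 2, 4 without old control 1 or old het 1, and 18 without young het 1. The count of genes opposite at both ages was 295 without old het 2, 151 without young control 3 and 24 without old het 1. Slbp and U3 passed in each of the 12 fits that left out 1 library, mt-Tq in 6, mt-Tp, Cnot3 and Cebpd in 5, Snord49b and Prkacb in 4 and U1 in 3. The sign of each of the 9 differences was the same in all fits.

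**Figure D4:**
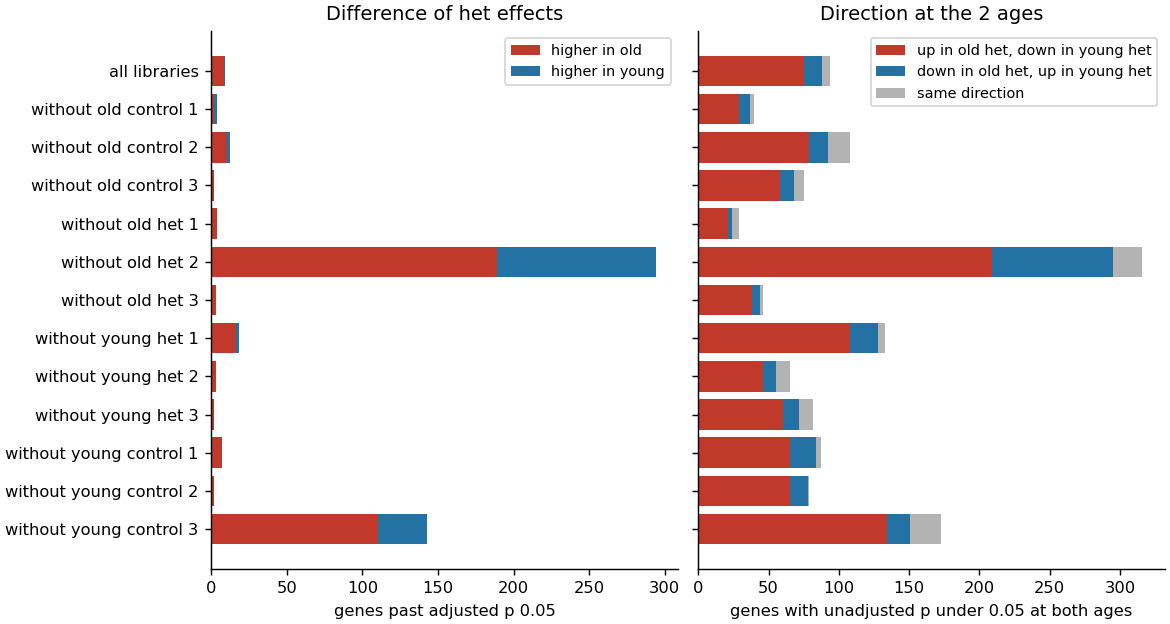
Number of genes (x axes) past adjusted p 0.05 for the difference of effects (left) and at an unadjusted p under 0.05 at both ages by direction (right), with all libraries and with each left out in turn (y axis). The bars without old het 2 (294 genes) and without young control 3 (143 genes) are the longest on the left.

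Both directions of the difference rested more on the young than on the old effect. Of the 696 genes with a positive difference at an unadjusted p under 0.05, the young effect was the larger in 539 (77.4%), and of the 660 with a negative one in 550 (83.3%). The median effects were 0.68 in old and -1.15 in young for the 696, and -0.53 and 1.33 for the 660. The group means show the same: young control had the highest mean in 625 of the 696 (89.8%, against 27.3% of all tested genes) and the lowest in 605 of the 660 (91.7%, against 37.9%). Old control lay at the other end, lowest in 487 (70%) of the 696 and highest in 401 (60.8%) of the 660. As the difference is computed from these means, the counts describe its form and test nothing.

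Gene structure was compared by medians, without a test. In the annotation of build GRCm38, the 696 had a median transcript length of 3775 bases and 10 exons, the 660 had 2974 bases and 6 exons, and all tested genes had 3389 bases and 8 exons. The median GC content was 47.6, 49.5 and 49.3% in the same order, and 86.3, 96.8 and 94.3% of the genes were protein-coding. At least 96.7% of each set had a value.

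Among cell type markers, several lists had negative differences only, as counted at an unadjusted p under 0.05. Of 25 tested genes of the primary granule and early granulocyte stage 0 had a positive and 7 a negative difference. Over all tested genes 6.56% were positive and 6.22% negative, the background for the counts of each list here and below. Basophil and mast cell genes (5 of 15 tested) and stem and multipotent progenitor genes (5 of 23) were also negative only. So were the T and NK cell list and the stromal list, with 1 each. The median effect of the primary granule and early granulocyte list was -0.22 in old and 0.73 in young (all tested genes: -0.05 and 0.08). Prtn3, the granule proteinase 3, was at 1995 and 1502 CPM in old controls and hets and at 424 and 1241 CPM in young controls and hets, and had effects of -0.41 and 1.55. Cst7, a protease inhibitor of granules, had -0.22 and 2.68. None of the 25 primary granule and early granulocyte genes passed. The median difference of the list was -0.60 and ran from -1.08 without old het 2 to -0.44 without old het 3. Of 11 tested genes of the secondary granule stage 0 were past that p in either direction, with medians of -0.72 and 0.45, and their median difference of -0.95 was -0.29 without old control 1, -1.61 without young control 2 and 0.22 without old control 1 and young control 3 together. It was -0.15 with log2 total count in the model and -1.71 with the mitochondrial rRNA share.

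The other lines differed in direction by the count at an unadjusted p under 0.05. Basophil and mast cell genes had 5 negative and 0 positive differences of 15 tested. Their median difference was -0.18, the same as over all tested genes, and 6 of the 15 differences were above 0. It ran from -1.51 without young control 3 to 0.23 without old control 2. Prss34, a basophil protease, had effects of -0.63 and 3.64, with only 1, 0 and 7 counts in young controls. Hdc, the enzyme of histamine synthesis, had 0.17 and 1.94. Of 14 monocyte genes 2 were positive and 0 negative: Ly86 (1.08 and -2.62), a partner of an innate immune receptor, and F13a1. The monocyte list as a whole leaned the other way. Its median difference was -0.33, against -0.18 over all tested genes, and 5 of the 14 differences were above 0. Erythroid genes had 0 of 23 in either direction in edgeR at an unadjusted p under 0.05. B lymphoid genes had 3 positive and 0 negative of 11: Ebf1, Pax5 (1.72 and -1.27), a B lineage factor, and Vpreb2, of the surrogate light chain. Vpreb2 had 0, 0 and 1 counts in old controls and 6, 3 and 4 in old hets, so its old effect rests on 1 control count. The median difference of the 11 was 0.56 and ran from -0.06 without old het 3 to 1.45 without old control 1; it was 0.10 without old het 2, 0.12 without old control 2, 0.13 without young het 2, 0.32 without young het 1 and 0.93 without young control 2.

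Stem cell, MHC class II and megakaryocyte genes had negative median differences that moved when single libraries were left out. Each such fit repeated the low-count filter and tested 10883 to 11380 genes, so the members behind a median can differ from those of the full fit. For MHC class II every such median, from -1.96 to -0.82, was smaller in size than in the full fit. The part of changed members was not tested. The medians were -1.26 for 23 stem and multipotent progenitor genes, -2.14 for 13 dendritic cell and MHC class II genes and -0.76 for 23 megakaryocyte genes, and without old control 1 they were -0.41, -0.82 and 0.24. The MHC class II median was also -0.88 without old het 1, -0.88 without young control 3, -0.91 without young het 3, -0.95 without young het 1, -1.25 without old control 3 and -1.36 without young control 1. The stem cell median was -0.83 without young het 3, and the megakaryocyte median -1.37 without young control 3. With log2 total count in the model the 3 medians were 0.02, 0.69 and 1.21. In old control 1 the median level of the 3 lists was 1.12, 1.22 and 0.78 above the old control mean (log2), where the other old controls were at -0.78 to -0.27. The counts at an unadjusted p under 0.05 were 0 positive and 5 negative, 1 and 3, and 2 and 1. Lmo2, a factor needed to form blood stem cells, had -0.41 and 0.99 and its groups did not overlap at either age. Hlf, a stem cell factor, had -2.04 and 0.36, and was at 270 CPM in old control 1 but at 31.8 and 34.5 CPM in the other old controls. H2-Ab1, an MHC class II chain, had -2.13 and 1.41, and was at 138 CPM in old control 1 but at 8.02 and 17.7 CPM in the others. With genes at 0 in a whole group set at the floor, the MHC class II medians were -2.14 for the difference and 0.15 for the young effect, against 0.30 as fitted.

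Interferon response and immunoproteasome genes had 0 positive and 8 negative differences of 35 tested at an unadjusted p under 0.05 (background 6.56% and 6.22%). Their median difference was -0.78, which became -0.39 without old control 1 and 0.37 with log2 total count in the model. Psmb9, an immunoproteasome subunit, was at 142, 141 and 92.4 CPM in old controls, 22.6, 34.1 and 51.2 CPM in old hets, 36.4, 5.1 and 28.3 CPM in young controls and 36.6, 68.6 and 42.6 CPM in young hets. Its groups did not overlap at either age, with effects of -1.79 ± 0.49 and 1.02 ± 0.50. In young they nearly touched, at 36.4 CPM in young control 1 and 36.6 CPM in young het 1. The young effect had an unadjusted p of 0.055 in edgeR. NF-kB and immediate early genes had 1 positive and 5 negative of 31, and their median difference of -0.86 was -0.20 without old control 1 and 0.56 with log2 total count in the model. The 1 was Nfkbia, the inhibitor of NF-kB, at 0.44 and -2.11, and Fos, an immediate early factor, had -2.06 ± 0.57 and 0.12 ± 0.49. Cytokine receptors had 2 and 6 of 39, and their median difference of -0.36 was 0.42 with log2 total count in the model. Csf2ra, of the GM-CSF receptor, was at -0.39 and 3.23, and Il6ra, of the interleukin 6 receptor, at 0.79 and -1.21. Csf2ra had 5, 2 and 0 counts in young controls, so its young effect rests on few control counts.

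**Figure D5:**
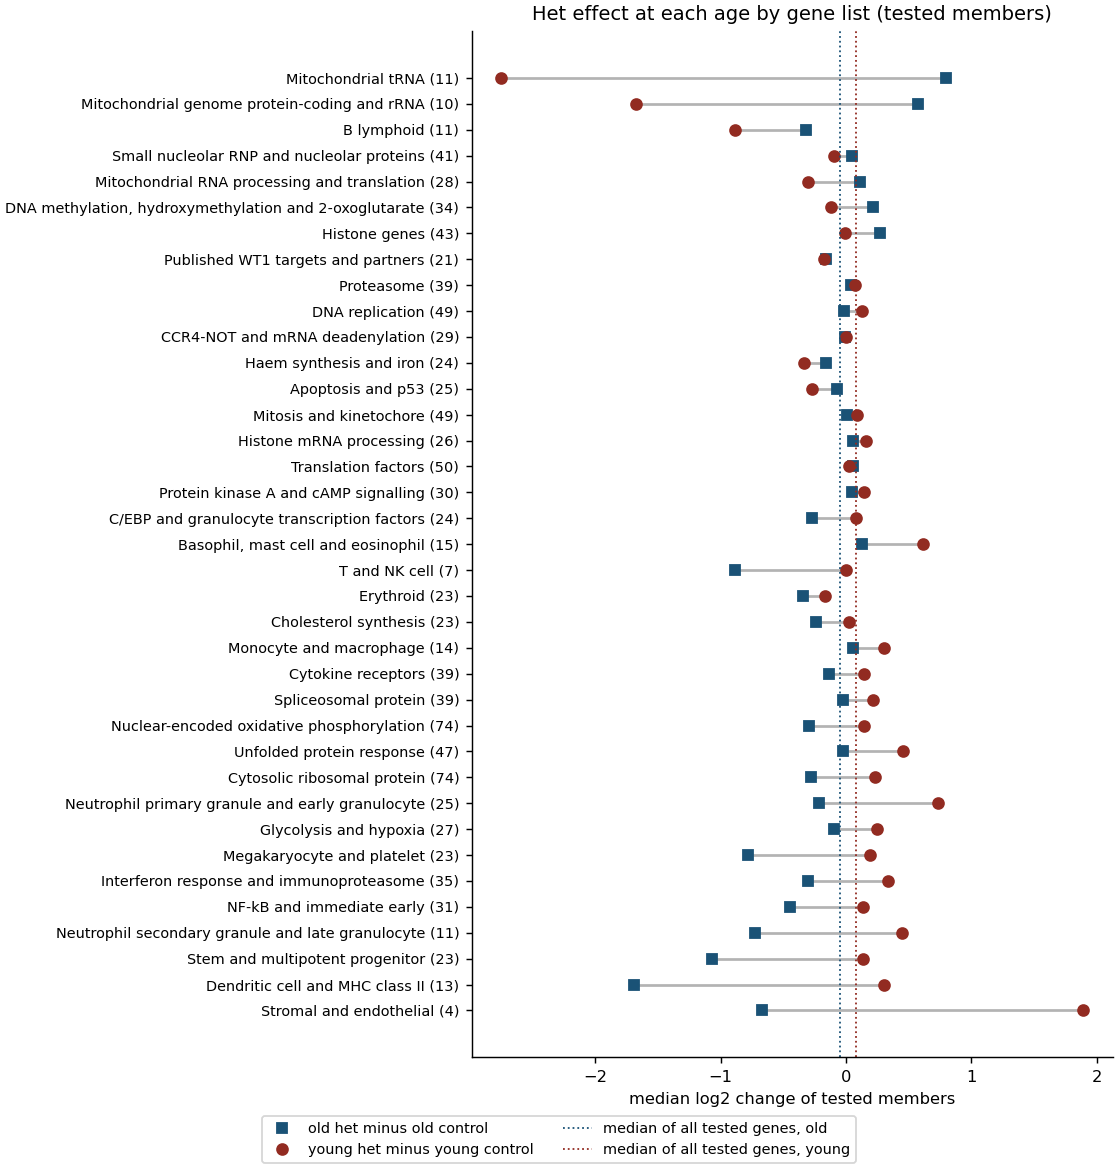
Median het effect (x axis, log2 change) of the tested members of each gene list (y axis, number of members in brackets) in old (squares) and young (circles); dotted lines mark the medians of all tested genes. The lists are ordered by their median difference, from mitochondrial tRNAs (0.80 in old and -2.75 in young) to the stromal list with 4 members.

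The 74 tested cytosolic ribosomal protein genes had 2 positive and 8 negative differences at an unadjusted p under 0.05 and medians of -0.28 in old and 0.23 in young; Rpl6 was an exception at 0.64 and -1.95. The 39 spliceosomal protein genes had 2 and 5, and 30 of them (76.9%) were of opposite sign at the 2 ages, against 57.4% of all genes. Of the 30, 12 were higher in old het and lower in young het, and 18 were the reverse. The median difference of the 39 was -0.41. It was -0.04 with the mitochondrial rRNA share in the model and -0.42 with log2 total count. The unfolded protein response had 1 and 2 of 47, with medians of -0.02 in old and 0.46 in young, and glycolysis and hypoxia had 1 and 3 of 27, with medians of -0.10 and 0.25. The median differences of the ribosomal, unfolded protein and glycolysis lists were -0.51, -0.50 and -0.66; with the mitochondrial rRNA share in the model they were -0.10, -0.18 and -0.29, and with log2 total count -0.02, -0.75 and -0.69. Glycolysis was at -0.25 without young het 1 and -0.43 without young control 2, and the ribosomal list at -0.78 without old het 2. DNA replication had 2 and 3 of 49 and mitosis 3 and 4 of 49. Apoptosis and p53 genes had 4 and 2 of 25, and the 4 positive ones included Bad, Trp53 (0.69 and -0.88), the p53 gene, and Bax (0.68 and -0.75), which p53 induces.

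In lists tied to WT1 itself positive and negative differences were equally many. Of 21 tested published targets and partners of WT1, 1 had a positive and 1 a negative difference at an unadjusted p under 0.05, and the median difference was 0.16, running from -0.02 without young control 3 to 0.40 without old het 2. It was 0.36 without old control 2 and 0.27 without young control 1. The 2 were Id2 (0.10 and -1.75), an inhibitor of helix-loop-helix factors, and Gfi1. Genes of DNA methylation, hydroxymethylation and 2-oxoglutarate metabolism, the pathway of TET2, had 2 and 2 of 34. Next to Idh1 these were Dnmt3b (-0.82 and 0.93), a DNA methyltransferase, Asxl2 (0.47 and -0.74), a chromatin regulator, and Ezh2 (0.47 and -0.70), the histone methyltransferase of Polycomb. No member of these 2 lists passed the test of the difference.

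All 6 tested sex-linked genes had positive differences at an unadjusted p under 0.05, and none passed. They pool Y-linked genes with X-linked Xist, which mark opposite sexes, so their shared sign is not 1 response. Xist had 5, 5 and 4 counts in old controls and 1058, 0 and 0 in old hets, so its old effect rests on old het 1. Ddx3y was at 126 ± 15.4 and 96.6 ± 84.2 CPM in old controls and hets, 90.8 ± 78.8 CPM in young controls and 0 in all young hets. With log2 Xist level in the model 20 genes passed for the difference (13 positive), and the 9 genes were among them. The part of sex in the other genes was not tested beyond that fit.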

How the data were processed

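RNA was counted per gene symbol in 12 libraries, 3 in each group. The values are raw counts, not normalized, as deposited by the authors in 1 table of 33924 genes. The submitters' processing notes name STAR 2.4, HTSeq 0.6.1, DESeq2 and mouse build mm9, without role. No source here gives the annotation, strandedness or use of molecular identifiers, so antisense, overlapping and near-identical genes cannot be told apart, and floors cover counting error only. All 12 columns were used (0 left out). Replicates of a group differed by more than counting noise in all pairs (chi-square over its degrees of freedom 5.55 to 54.5).

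Tests used edgeR 4.0.16 in R 4.3.3: filterByExpr (minimum count 10, total 15), TMM scaling and the quasi-likelihood F test, with the 4 groups of 3 in 1 fit (biological coefficient of variation 0.535) and Benjamini-Hochberg adjustment at 0.05. SEs are the change divided by the square root of F and are approximate. Levels are CPM against TMM-scaled totals, and medians by library use log2 with a pseudocount of 1. Groups at 0 were set at 3 counts over the group. In simulated counts with 200 changed genes, the test of the difference over 10604 genes found 0% of the genes changed 2-fold, 19.4% of those changed 4-fold and 51.5% of those changed 8-fold, and made 3 false calls.

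Genes named were Wt1, those past the threshold, the 30 of smallest p, the 12 of largest effect in each opposite direction, and up to 4 per list (38 lists) by p, predicted models giving place to the next except in lists; not all are printed, and Kit, Mpo, Upf3a, Ddx23 and the mitochondrial rRNAs were named outside this rule, after their values were seen. The members and lists were chosen with earlier results of these data known. Promoters come from RefSeq (GRCm38.p6) and gene structure from GENCODE on GRCm38; neither is the files' build, so no coordinate was joined to the counts. Cebpd is named only. Alternatives were DESeq2 1.42.0, limma-voom (limma 3.58.1), other scaling and filters (none, or at least 20 counts in 6 libraries), leaving out the 20 most counted genes, RNA classes or libraries, covariates, and thinning. Fits that left out libraries repeated the low-count filter, so the tested members of a list can change.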

Additional observations from a re-analysis of the deposited data

Results flagged for a closer look

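For 9 genes the effect of the het genotype in old and in young mice differed by the edgeR test of the difference itself (adjusted p under 0.05 over 10604 genes). The old effect minus the young effect, in log2, was 4.68 for Slbp, 3.95 for U3, 2.96 for mt-Tp, 3.09 for Cnot3, 3.91 for mt-Tq, 3.68 for Snord49b, 3.13 for U1 and 2.84 for Prkacb. It was -10.22 for Cebpd, whose young controls had 0 counts. In all 9 the young het and young control libraries did not overlap, and in none did the old groups separate.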

How the results depend on the processing

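Each of the 9 differences kept its sign in every fit run. Counts moved more. For the difference of effects 296 genes passed with DESeq2 (239 positive), 2 with limma-voom, 216 without a low-count filter, 59 without old control 1 and young control 3, 20 with log2 Xist level as a covariate, 3 when predicted, sex-linked, small RNA and mitochondrial genes were left out, 41 after thinning (median of 5 draws), and 0 with the mitochondrial rRNA share or log2 total count as a covariate. Leaving out 1 library gave 2 to 294 genes, the highest without old het 2 and next 143 without young control 3. For the young effect, 45 genes in the report, the counts were 355, 23, 258, 241, 21 and 15 in the first 4 and next 2 of those settings, 1 with the rRNA share and 0 with log2 total count (edgeR, 0 past the threshold), and 1 to 157 with 1 library left out (157 without young control 3, 107 without old het 2, 37 without old control 1, 32 without old het 1, and 1 to 17 without any other). For the old effect they were 11 without the filter and 0 to 1 with a library left out (1 without old control 2). The 88 genes of opposite sign became 168 without the filter, 26 with the rRNA share (2 of them higher in old het), 55 with Xist and 22 with log2 total count (7 of them higher in old het), and 24 to 295 with 1 library left out, namely 24 without old het 1, 37 without old control 1, 44 without old het 3, 55 without young het 2 and 151 without young control 3. The cause of these shifts was not tested. Scaling by DESeq2 size factors gave 11 genes and moved the median difference of all genes from -0.18 to -0.10.

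Of the values of the 30 genes of smallest p under other settings 496 kept their side of the threshold, 106 crossed to significance, 79 fell short and 0 reversed. These genes were picked by p in the same libraries, so the 0 says little about other genes. No paired analysis was possible because the labels give the groups no shared library numbers. Log2 total count as a covariate, and all alternatives for the count of opposite genes, were chosen after seeing the data. In the simulation 2-fold differences were not detectable at this size, and genes near 3 counts carry little information in the 5 shallowest libraries.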
